A study of Mus musculus with 12 samples.

Results

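Cxadr, the gene of the coxsackievirus and adenovirus receptor, was described with 6 relatives of the same immunoglobulin adhesion family, Clmp, Esam, Igsf11, F11r, Jam2 and Jam3, in the dorsal hippocampus of mice labelled by Mbnl2 genotype and by training. The 7 genes were found by their symbols among the 24421 genes of the count files, and all 7 were among the 15622 that passed the filter on low counts. Cxadr was selected on its measured difference between the genotypes in these libraries, so that difference is described here without a test. The 6 relatives were chosen for their kinship to Cxadr, with earlier results of these data known.

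The CAR and junctional adhesion molecule proteins are single-pass membrane proteins with a pair of immunoglobulin-like domains outside the cell and a tail that can bind PDZ scaffold proteins inside it. They bind like or related molecules on the neighbouring cell and are known from tight junctions of epithelium and endothelium, from leukocyte passage through vessel walls and from contacts between neural cells. In brain, CAR is known to be abundant during development and lower in the adult, and several JAM proteins are known from vessels, ependyma and glia.

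The study compared polyadenylated RNA of the dorsal hippocampus from 12 male mice of the 129sv/C57BL/6j strain aged 4 to 5 months, 1 mouse per library by the animal numbers of the labels. The 4 groups of 3 were Mbnl2 KO trained, Mbnl2 KO house control, Mbnl2 WT trained and Mbnl2 WT house control. The labels do not describe the targeted allele, the task, or the time between training and dissection. The animal numbers fall into a first series of 8 mice (1188 to 1240) and a second of 4 (1357 to 1365), spread evenly over the groups.

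Total counts per library lay between 19737929 and 27427076, and 3 counts corresponded to 0.109 to 0.152 CPM (counts scaled to library size), a floor that covers counting error only. Mbnl2, which encodes a muscleblind-like splicing regulator, had 509, 473 and 542 CPM in the KO trained, 488, 470 and 454 CPM in the KO house control, 360, 363 and 365 CPM in the WT trained and 338, 315 and 324 CPM in the WT house control libraries. Every library labelled KO was thus above every library labelled WT (log2 fold change 0.51, SE 0.05, Benjamini-Hochberg adjusted p = 0.00626, edgeR quasi-likelihood). A count over all exons of the gene does not check a deletion of part of it, so the groups are called KO-labelled and WT, and each direction rests on the labels. Tissue content differed between libraries: the summed level of 15 choroid plexus markers ran from 54.9 to 15543 CPM, and that of 9 oligodendrocyte markers from 2024 to 10319 CPM. Over both treatments the library ranges of KO-labelled and WT mice overlapped for each of 12 such marker lists. Averages of the sums still differed for some lists. Leptomeningeal markers averaged 446 CPM in KO-labelled and 1131 CPM in WT mice, and dentate granule neuron markers 758 and 1041 CPM. CA1 markers went the other way, at 880 CPM in KO-labelled and 618 CPM in WT mice. Within the treatments they did not overlap for 3: CA1 markers summed to 960 to 1015 CPM in KO trained and 435 to 802 CPM in WT trained mice, leptomeningeal markers to 219 to 685 CPM in KO and 1372 to 1976 CPM in WT house controls, and microglia markers to 467 to 588 CPM in KO and 433 to 461 CPM in WT house controls. The part of tissue content in the genotype differences, within a treatment or over both, was not tested. No marker of any list was at 0 in every library of a group.

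The 7 genes are annotated at chr16:78301489-78359774 (plus strand) for Cxadr, chr16:38892671-39027159 (plus) for Igsf11 and chr16:84774123-84825928 (plus) for Jam2, at chr9:40685962-40785319 (plus) for Clmp, chr9:37528078-37538319 (plus) for Esam and chr9:27097384-27155421 (minus) for Jam3, and at chr1:171437535-171464603 (plus) for F11r, all in mm10. Cxadr has 6 annotated transcripts, 4 of them protein-coding, which the gene-level count adds together. Its span overlaps the minus-strand genes Btg3 and E330011O21Rik. The other 6 members overlap no other gene of the count files.

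Muscleblind proteins are known to bind short YGCY elements in RNA, where Y is C or T. The windows of 30 bases with most such elements are shown for Cxadr, the gene with the large genotype difference, and for the relatives on the same chromosome, Igsf11 and Jam2. Each was searched for TGCT and TGCC and for CGCT and CGCC on the transcript strand of the longest protein-coding transcript (GENCODE M21, mm10). Capitals mark the elements, which may share a base. The windows lie at chr16:78301709-78301738, chr16:38902438-38902467 and chr16:84774386-84774415, all on the plus strand and in the 5′ UTR of exon 1.
Cxadr: cgcagaggTGCCttCGCTGCTGCCacCGCC
Igsf11: cCGCTtggtcccaCGCTgcacccCGCCGCC
Jam2: ctcctcTGCTcCGCCGCCgggcgaagTGCT

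The Cxadr window held 5 elements, a number that some window reached in 19.2% of 14315 genes scanned. The Igsf11 and Jam2 windows held 4, reached in 52.1% of genes. The best windows of F11r and Jam3 also held 4, and those of Clmp and Esam 3, reached in 89.8%. A longer transcript has more windows, and these shares make no allowance for length. The median length over the genes scanned was 3203 bases. Over its whole 5742-base transcript Cxadr held 74 elements, or 12.9 per kb, against a median of 15.6 per kb over all genes scanned (27.0th percentile). Among the relatives the density ran from 12.7 per kb in F11r to 21.4 per kb in Esam. A match of these letters describes the sequence and is not a binding site.

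Cxadr was the member whose level differed most between the genotypes. The KO trained libraries had 94.0, 80.9 and 97.9 CPM and the KO house control libraries 75.5, 82.2 and 99.8 CPM, against 17.8, 18 and 22.1 CPM in WT trained and 19.6, 22.0 and 29.1 CPM in WT house control libraries. All 6 KO-labelled libraries were above all 6 WT libraries, and the lowest KO-labelled library was at 75.5 CPM where the highest WT library was at 29.1 CPM. The mean was 88.4 ± 10.1 CPM in KO-labelled and 21.5 ± 4.19 CPM in WT mice (SD, n = 6 each), a 4.14-fold difference (95% interval 3.46 to 4.95; log2 fold change 2.05, SE 0.12). This size and its interval come from the libraries in which Cxadr was selected, and make no allowance for that choice. The raw counts behind these values, 1755 to 2456 in KO-labelled and 381 to 705 in WT libraries, were far above the counting floor.

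The difference in Cxadr was present in both treatments and both series of animals. The subsets and fits given here reuse the libraries in which Cxadr was selected, so they describe the difference and do not replicate it. In trained mice it was 4.70-fold (log2 fold change 2.23, SE 0.17), and in house controls 3.64-fold (1.86, SE 0.16). Among mice of the first series the log2 fold change over both treatments was 2.1. The second series has 1 library per group, with 97.9 and 99.8 CPM in the KO-labelled and 22.1 and 29.1 CPM in the WT mice. Without the 3 libraries richest in thalamus transcripts (WT house control 2 and 3, KO house control 3) the log2 fold change was 2.12. WT house control 1 was then the only library of its group. Without KO house control 2 and KO trained 2, both rich in striatum and septum transcripts, the log2 fold change was 2.11. WT house control 3, also rich in striatum and septum transcripts, was kept in that fit. In the authors' deposited tables, which come from the same series of mice, the log2 fold change of Cxadr was 2.23 (SE 0.14) in trained mice and 1.86 (SE 0.21) in house controls. In whole tissue, a change in the number of cells that express a gene and a change in its RNA per cell cannot be told apart.

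**Figure D1:**
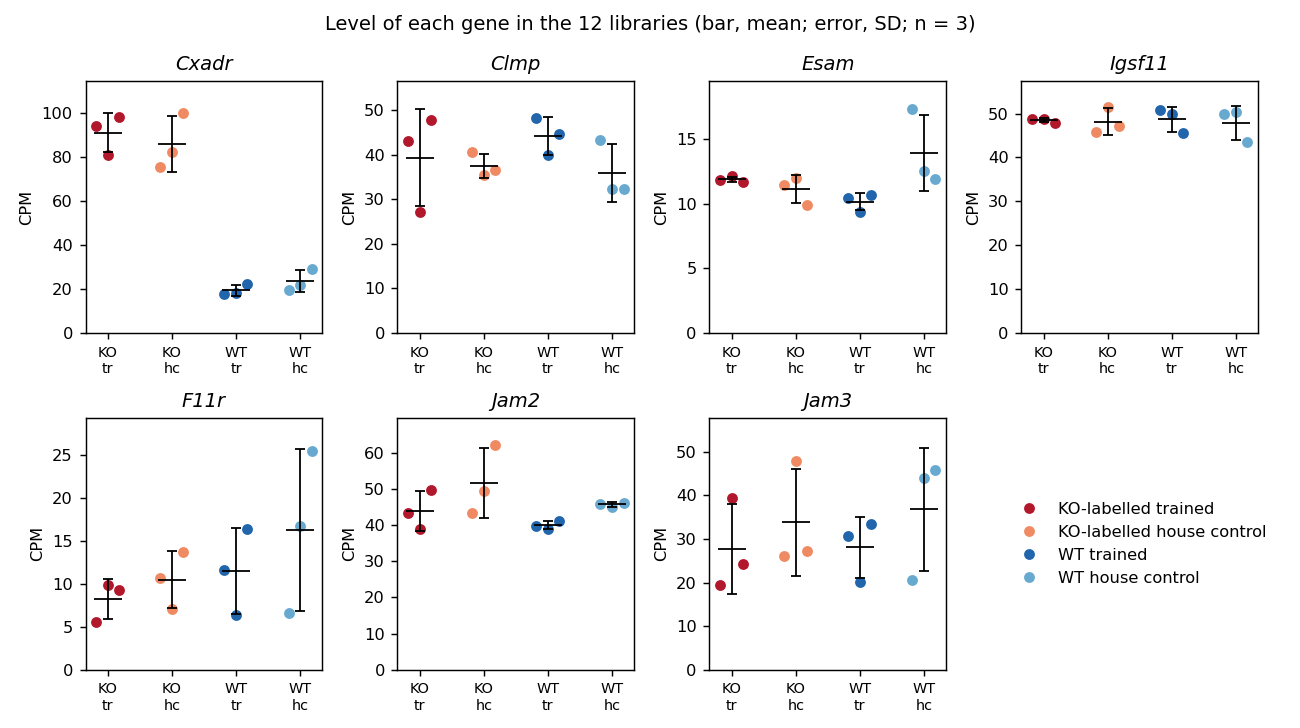
Level of each gene in CPM (y axis) in the 12 libraries, by group (tr, trained; hc, house control); points are libraries, horizontal bars means and error bars SD (n = 3). In the Cxadr panel the KO-labelled libraries lie between 75.5 and 99.8 CPM and the WT libraries between 17.8 and 29.1 CPM, while KO-labelled and WT libraries overlap in the panel of every relative.

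Per length, Cxadr held a different place within the family in the 2 genotypes. In KO-labelled libraries it averaged 11.9 ± 1.37 CPM per kb of exon (SD, n = 6), ahead of Igsf11 at 10.8 ± 0.43, Jam3 at 9.61 ± 3.35, Clmp at 8.37 ± 1.56, Jam2 at 7.91 ± 1.35, Esam at 4.02 ± 0.28 and F11r at 3.52 ± 1.06 CPM per kb. In WT libraries the order of the same level was Igsf11 at 10.8 ± 0.68, Jam3 at 10.1 ± 3.45, Clmp at 8.72 ± 1.45, Jam2 at 7.08 ± 0.53, F11r at 5.22 ± 2.72, Esam at 4.2 ± 0.98 and Cxadr last at 2.90 ± 0.57 CPM per kb. Cxadr ranked 1 to 3 in each KO-labelled library and 6 or 7 in each WT library. The order of genes depends on the length used, here all annotated exons, 7400 bases for Cxadr and 3200 for Jam3. Their longest protein-coding transcripts have 5742 and 1942 bases, and an order by those lengths was not computed.

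Most neighbours in these orders did not separate. In KO-labelled libraries Jam2 was above Esam in 6 of 6, but every other gene was above the next in 3 or 4 of 6. In WT libraries Esam was above Cxadr in 6 of 6 and Jam2 above F11r in 5 of 6, and the remaining neighbours kept their order in 3 or 4 of 6. Cxadr made up 21.3 ± 2.31% of the family's summed level per kb in KO-labelled and 5.89 ± 0.656% in WT libraries, with ranges of 18.4 to 24.2% in KO-labelled and 4.98 to 6.99% in WT libraries. The relatives together summed to 44.2 ± 3.23 CPM per kb in KO-labelled and 46.1 ± 5.05 CPM per kb in WT libraries (SD, n = 6 each).

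**Figure D2:**
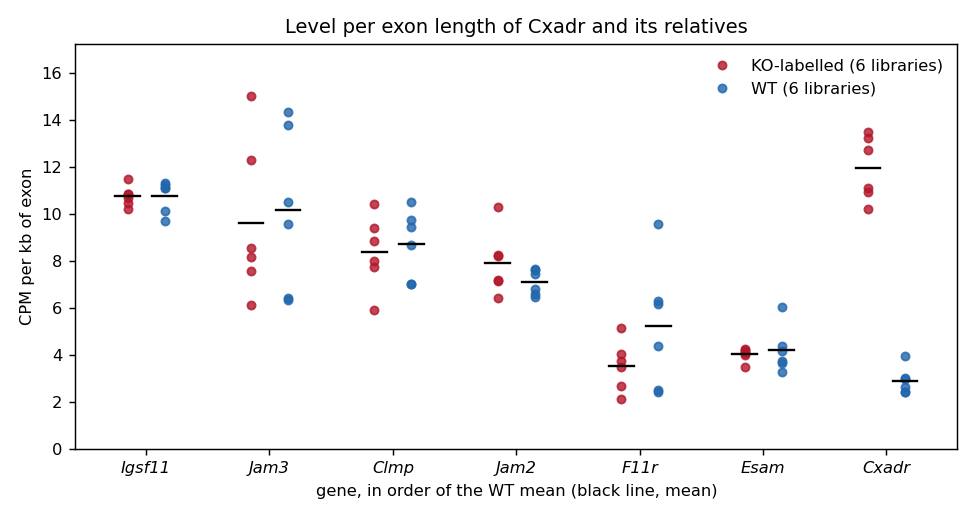
Level per exon length (CPM per kb, y axis) of the 7 genes in 6 KO-labelled (left of each pair) and 6 WT libraries, in the order of the WT mean; black lines are means. Cxadr is last in the WT order at 2.90 CPM per kb and lies at 11.9 CPM per kb in KO-labelled libraries, where it is above Igsf11 in 4 of 6.

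None of the 6 relatives passed the test between the genotypes over both treatments, with 0 of 6 called by edgeR, which called 0.576% of all genes tested, and 0 of 6 by DESeq2, which called 5.04% of those it gave an adjusted p. At an unadjusted p under 0.05 there were also 0 of 6, beside 14.4% of all genes. Their log2 fold changes ran from -0.56 to 0.16 with 2 above 0 (48% of all genes), and the median was -0.05 beside -0.01 for all genes tested. In trained mice 0 of 6 and in house controls 0 of 6 were called, in each case where 0.0128% of all genes were. In house controls 1 of 6 (Esam) had an unadjusted p under 0.05, beside 10.7% of all genes. The authors' deposited tables also list 0 of the 6 at an adjusted p under 0.05, the smallest being 0.919 in trained mice and 0.708 in house controls, where those tables call 0.834% and 0.558% of the genes with an adjusted p.

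Igsf11, an adhesion molecule of brain and testis known from synapses, was the steadiest member. The KO trained libraries had 48.7, 48.8 and 47.9 CPM and the KO house control libraries 45.9, 51.6 and 47.0 CPM, against 50.7, 49.8 and 45.5 CPM in WT trained and 49.8, 50.4 and 43.5 CPM in WT house control libraries. The groups overlapped throughout, and the coefficient of variation over all 12 libraries was 5.02%, the smallest of the 7. The mean was 48.3 ± 1.93 CPM in KO-labelled and 48.3 ± 3.04 CPM in WT mice (SD, n = 6 each). The 95% interval of the fold, 0.92 to 1.09, leaves room in these libraries for a difference of less than 10% either way (edgeR quasi-likelihood, adjusted p = 0.999).

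Clmp, the CAR-like membrane protein, is among the members closest in kind to Cxadr. It had 43.1, 27.1 and 47.8 CPM in KO trained and 40.5, 35.4 and 36.6 CPM in KO house control libraries, against 48.2, 39.8 and 44.6 CPM in WT trained and 43.3, 32.2 and 32.2 CPM in WT house control libraries. The groups overlapped, and KO trained replicate 2 was the lowest of the 12. The log2 fold change of KO-labelled over WT was -0.05 (SE 0.14, 95% interval -0.35 to 0.25, Benjamini-Hochberg adjusted p = 0.893, edgeR quasi-likelihood). KO trained replicate 2 was also the library highest in striatum and septum markers, at 1450 CPM summed over 11 markers where the others ran from 250 to 1141 CPM. That library, KO house control replicate 2 and WT house control replicate 3 were set apart in these markers, at 5.72 to 6.03 on the mean log2 CPM scale where the other 9 libraries lay at 2.62 to 4.24, a split at the widest gap that was chosen after the values were seen. Clmp was at 27.1 to 35.4 CPM in those 3 and at 32.2 to 48.2 CPM in the 9. Within the 9, Pearson's r of Clmp with the markers was -0.44 (exact permutation p = 0.237) and Spearman's rho -0.17 (exact permutation p = 0.678), unadjusted, and r was -0.81 without the 2 libraries farthest from the median. Without KO house control 2 and KO trained 2, but with WT house control 3 kept, the log2 fold change of Clmp between the genotypes was 0.08.

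Jam2 encodes JAM-B, known in mouse from vessels and from neuronal cell bodies, where it limits myelination. It had 43.2, 38.9 and 49.8 CPM in KO trained and 43.3, 49.5 and 62.1 CPM in KO house control libraries, against 39.8, 39.0 and 41.2 CPM in WT trained and 45.9, 44.9 and 46.2 CPM in WT house control libraries. The genotypes overlapped, and KO house control replicate 3 stood above all other libraries. The log2 fold change of KO-labelled over WT was 0.16 (SE 0.09, 95% interval -0.04 to 0.35, Benjamini-Hochberg adjusted p = 0.444, edgeR quasi-likelihood). It was 0.09 without KO house control replicate 3 and 0.05 among mice of the first series. That replicate also had the highest summed level of astrocyte markers (6640 CPM) and of microglia markers (588 CPM). The part of these cells in the genotype difference of Jam2 was not tested.

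Jam3 encodes JAM-C, and F11r encodes JAM-A of epithelial and endothelial tight junctions. Both varied widely within every group. Jam3 had 19.6, 39.3 and 24.2 CPM in KO trained and 26.1, 48.0 and 27.3 CPM in KO house control libraries, against 30.6, 20.2 and 33.6 CPM in WT trained and 20.6, 44.0 and 45.8 CPM in WT house control libraries. F11r had 5.63, 9.91 and 9.27 CPM in KO trained and 10.7, 7.08 and 13.7 CPM in KO house control libraries, against 11.7, 6.42 and 16.4 CPM in WT trained and 6.63, 16.8 and 25.5 CPM in WT house control libraries. The groups overlapped for both genes, and the coefficient of variation over 12 libraries was 32.9% for Jam3 and 49.4% for F11r.

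The intervals of these 2 genes were correspondingly wide. The log2 fold change of KO-labelled over WT was -0.07 for Jam3 (SE 0.26, 95% interval -0.65 to 0.51, Benjamini-Hochberg adjusted p = 0.924, edgeR quasi-likelihood). For F11r it was -0.56 (SE 0.34, 95% interval -1.31 to 0.19, Benjamini-Hochberg adjusted p = 0.478, edgeR quasi-likelihood). Without the 3 libraries richest in thalamus transcripts the F11r value was -0.03 and the Jam3 value 0.41. That fit left WT house control 1 as the only library of its group. It kept WT trained 3, at 8084 CPM of choroid plexus markers beside 8196 CPM in WT house control 2, which was left out. Without the 2 KO-labelled libraries rich in striatum and septum transcripts Jam3 was at -0.41. That fit kept WT house control 3, which was also rich in them, so it left out such libraries from 1 genotype only. Among mice of the first series F11r was at -0.31 and Jam3 at 0.20. A difference as small as the Igsf11 interval allows would not be detectable for these genes.

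Esam encodes an endothelial cell-selective adhesion molecule. It had 11.8, 12.1 and 11.7 CPM in KO trained and 11.5, 12 and 9.94 CPM in KO house control libraries, against 10.4, 9.39 and 10.7 CPM in WT trained and 17.3, 12.5 and 11.9 CPM in WT house control libraries. The 3 KO trained libraries were above the 3 WT trained libraries, and KO and WT house controls overlapped. Groups of 3 without overlap were seen for 14% of all genes tested in trained mice. The log2 fold change of KO-labelled over WT was 0.22 in trained mice (SE 0.14, adjusted p = 0.881) and -0.32 in house controls (SE 0.14, unadjusted p = 0.047, adjusted p = 0.463), in the edgeR quasi-likelihood fit. Over both treatments it was -0.05 (SE 0.10, 95% interval -0.27 to 0.17).

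**Figure D3:**
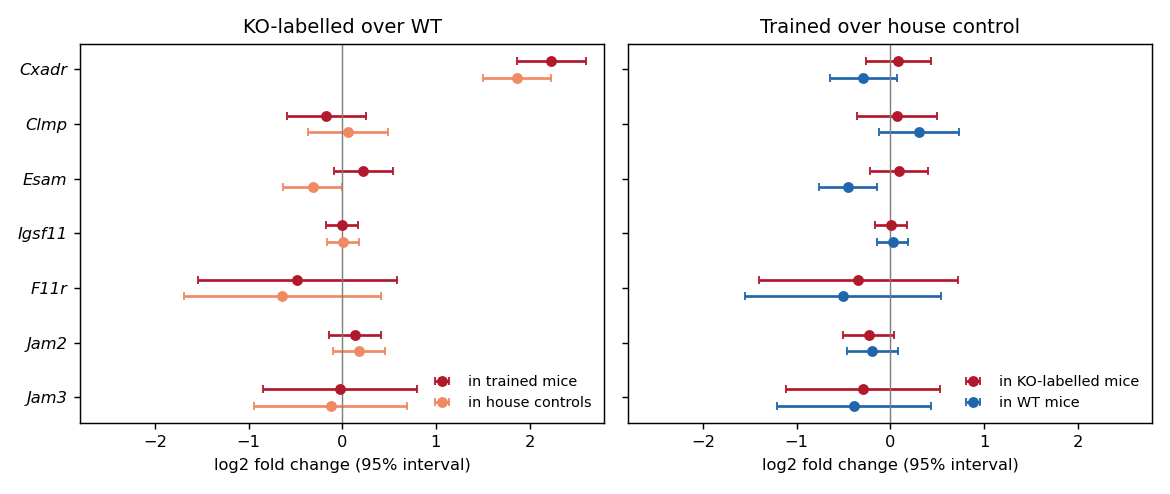
Log2 fold changes (x axis) of the 7 genes with their 95% intervals, on the left KO-labelled over WT in trained mice and in house controls, on the right trained over house control in KO-labelled and in WT mice. Cxadr lies at 2.23 and 1.86 on the left, while its training effects lie at 0.08 and -0.29; the interval of Esam in WT mice, -0.77 to -0.14, is below 0.

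Training was not followed by a called change in any of the 7 genes. Over both genotypes 0 of 7 were called by edgeR, which called 0% of all genes tested, and 0 of 7 by DESeq2, which called 0.442%, and 1 of 7 (Jam2) had an unadjusted p under 0.05, beside 11.2% of all genes. The log2 fold changes of trained over house control ran from -0.42 to 0.19 with 2 above 0 (47.7% of all genes), and their median was -0.18 beside -0.01 for all genes. Within KO-labelled and within WT mice 0 of 7 were called, again with 0% of all genes called in each. An unadjusted p under 0.05 was found for 0 of 7 in KO-labelled mice, beside 3.01% of all genes, and for 1 of 7 (Esam) in WT mice, beside 9.82% of all genes. The authors' deposited tables call 0 of 7 in either genotype, beside 0.0716% of genes with an adjusted p in KO-labelled and 0.117% in WT mice.

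Cxadr levels of trained and house control mice overlapped in both genotypes. The log2 fold change of trained over house control was 0.08 in KO-labelled mice (SE 0.16) and -0.29 in WT mice (SE 0.16, 95% interval -0.64 to 0.07, Benjamini-Hochberg adjusted p = 0.506, edgeR quasi-likelihood). The interaction, the genotype effect in trained mice minus that in house controls, was 0.37 (SE 0.23, 95% interval -0.13 to 0.87, unadjusted p = 0.129 and Benjamini-Hochberg adjusted p = 1.00, edgeR quasi-likelihood). Without WT house control replicate 3, the WT library highest in Cxadr, it was 0.20. For the interaction 0 of 7 members were called, where 0% of all genes were, and 1 of 7 (Esam) had an unadjusted p under 0.05, beside 1.5% of all genes.

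Jam2 and Esam were lower after training in WT mice in every library. Groups of 3 without overlap were seen for 14.8% of all genes tested in that comparison. For Jam2 the log2 fold change was -0.19 in WT and -0.23 in KO-labelled mice, and -0.21 over both (SE 0.09, 95% interval -0.41 to -0.02, unadjusted p = 0.0352 and Benjamini-Hochberg adjusted p = 0.436, edgeR quasi-likelihood). Without KO house control replicate 3 it was -0.13. Astrocyte markers, 10 of 10 measured, summed to 4506 to 5679 CPM in trained and 4086 to 6640 CPM in house control mice over both genotypes, which overlapped. Within KO-labelled mice they did not overlap, at 4506 to 5043 CPM in trained and 5523 to 6640 CPM in house control libraries. Microglia markers, 10 of 10 measured, did not overlap there either, at 372 to 452 CPM in trained and 467 to 588 CPM in house control libraries, nor did those of ependymal cells and of oligodendrocyte precursors. The part of these cells in the training difference of Jam2 was not tested.

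For Esam the training difference in WT mice was -0.45 (SE 0.14, 95% interval -0.77 to -0.14, unadjusted p = 0.00913 and Benjamini-Hochberg adjusted p = 0.502, edgeR quasi-likelihood), and in KO-labelled mice it was 0.09 (SE 0.14). The interaction was 0.54 (SE 0.20, unadjusted p = 0.0211 and Benjamini-Hochberg adjusted p = 1.00, edgeR quasi-likelihood). Without WT house control replicate 1, the library with 17.3 CPM, the WT difference was -0.26 and the interaction 0.36. Among mice of the first series the WT difference was -0.59 and the interaction 0.62, and in the second the WT trained library had 10.7 and the WT house control library 11.9 CPM.

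Endothelial markers moved the same way as Esam in WT mice. All 15 were measured, and they summed to 269 to 322 CPM in WT trained and 386 to 509 CPM in WT house control libraries, without overlap. In KO-labelled mice the sums were 295 to 314 CPM after training and 309 to 404 CPM in house controls. Leptomeningeal markers, 10 of 10 measured, likewise summed to 196 to 1310 CPM in WT trained and 1372 to 1976 CPM in WT house control libraries. The part of either cell type in the training difference of Esam was not tested.

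Jam3 varied with oligodendrocyte markers across the libraries. Over 12 libraries log2 Jam3 correlated with the mean log2 level of 9 oligodendrocyte markers (Mbp, Mog, Mag and others) with Pearson's r of 0.96 and Spearman's rho of 0.97, by permutation tests with p = 1e-05 for r, the smallest that 100000 permutations can give. Adjusted over 72 relations of 6 genes with 12 marker lists, the permutation p was 0.00072 for r and 0.00144 for rho. The r was 0.97 without the 2 libraries farthest from the median marker level, 0.98 in the first series of 8 animals and 0.96 for deviations from the group means. The second series holds 4 libraries, too few for a value. The 3 libraries highest in Jam3, KO house control 2 and WT house control 2 and 3, were the 3 highest in these markers.

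Jam3 followed markers of other regions and cells in the same libraries. It was at 39.3 to 48.0 CPM in the 3 libraries set apart by striatum and septum markers and at 19.6 to 44.0 CPM in the other 9. Within the 9, Pearson's r with these markers was 0.86 (exact permutation p = 0.0019) and Spearman's rho 0.92 (exact permutation p = 0.00131), unadjusted, and r was 0.82 without the 2 libraries farthest from the median. Over all 12, ependymal markers gave r = 0.78 (adjusted permutation p = 0.012) and rho = 0.81 (adjusted permutation p = 0.0262), with r = 0.77 without the 2 farthest libraries and 0.79 in the first series. Dentate granule neuron markers gave r = -0.72 (adjusted permutation p = 0.0456) and rho = -0.69 (adjusted permutation p = 0.142), with r = -0.55 without the 2 farthest libraries and -0.81 in the first series. Which of these marker lists Jam3 goes with apart from the others was not tested.

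F11r was lowest in the 4 libraries lowest in choroid plexus markers. The mean of 15 markers (Ttr, Kl, Folr1 and others) split the libraries into 4 at -0.52 to 1.34 and 8 at 4.57 to 7.25 log2 CPM, so no r over all 12 is given. F11r had 5.63 to 7.08 CPM in the 4, which held 1 library of each group, and 9.27 to 25.5 CPM in the 8. Within the 8, Pearson's r was 0.90 (exact permutation p = 0.00424) and Spearman's rho 0.76 (exact permutation p = 0.0368), unadjusted. Without the 2 libraries farthest from the median r was 0.65, so the size of this relation rests partly on those libraries. Over all 12, F11r gave r = 0.81 with ependymal markers (adjusted permutation p = 0.0144; 0.82 without the 2 farthest libraries) and r = 0.80 with thalamus markers (adjusted permutation p = 0.0196; 0.71 without the 2 farthest).

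**Figure D4:**
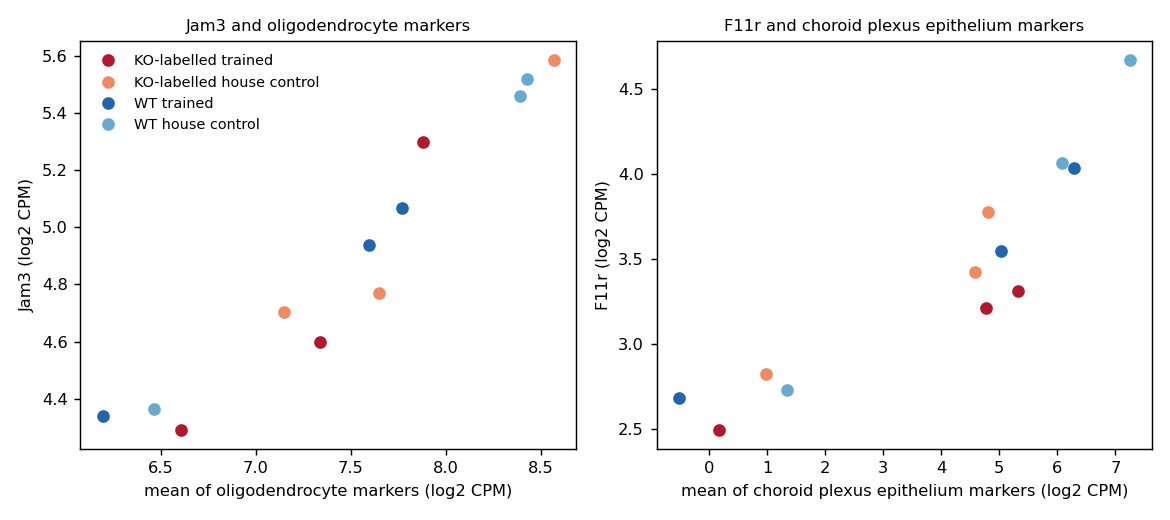
Left, log2 CPM of Jam3 against the mean log2 CPM of 9 oligodendrocyte markers; right, log2 CPM of F11r against that of 15 choroid plexus epithelium markers; points are the 12 libraries, coloured by group. Jam3 climbs with the markers across all groups (r = 0.96), and 4 libraries, 1 of each group, lie low in both F11r and choroid plexus markers.

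Of the 72 relations, 11 passed an adjusted permutation p of 0.05 by Pearson's r and 7 by Spearman's rho, lists whose libraries fall into clusters included. Jam3 and markers of oligodendrocyte precursors gave r = 0.81 (adjusted permutation p = 0.012) and rho = 0.87 (adjusted permutation p = 0.00702), with r = 0.75 without the 2 farthest libraries and 0.89 in the first series. Jam2 and astrocyte markers gave r = 0.78 (adjusted permutation p = 0.0294) and rho = 0.65 (adjusted permutation p = 0.142), with r = 0.56 without the 2 farthest libraries and 0.77 in the first series. Jam2 and microglia markers gave r = 0.74 (adjusted permutation p = 0.0388) and rho = 0.57 (adjusted permutation p = 0.223), with r = 0.48 without the 2 farthest libraries. Esam and endothelial markers gave r = 0.67 (adjusted permutation p = 0.112) and rho = 0.35 (adjusted permutation p = 0.624), with r = 0.24 without the 2 farthest libraries and 0.88 in the first series. The relation of Esam to endothelial markers thus rested on those 2 libraries.

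The genes nearest to Cxadr on chromosome 16 had small differences between the genotypes. Among the 10 nearest tested genes, 5 on each side, 0 were called over both treatments by edgeR, beside 0.576% of all genes tested, and 0 had an unadjusted p under 0.05, beside 14.4% of all genes, with log2 fold changes from -0.24 to 0.26, 6 of them above 0. All 10 overlapped between KO-labelled and WT libraries. Of all genes tested 1.78% did not overlap, and 0 of 10 is near that share. Btg3, an antiproliferative gene whose annotation overlaps Cxadr on the other strand, had 10.4 ± 1.67 CPM in KO-labelled and 9.53 ± 1.23 CPM in WT mice (SD, n = 6 each; log2 fold change 0.12, SE 0.12). Nrip1, a nuclear receptor corepressor, had a log2 fold change of 0.26 (SE 0.15), and D16Ertd472e had -0.24 (SE 0.13). Besides the 2 overlapping genes, D16Ertd472e lies 181 kb and Mir99ahg 528 kb from Cxadr. Usp25 lies 1185 kb, Nrip1 1928 kb, Samsn1 2279 kb, Ncam2 2841 kb and Mrpl39 6358 kb away. Jam2 is the farthest of the 10, at 6414 kb. The overlapping E330011O21Rik had a mean of only 0.401 CPM in KO-labelled and 0.373 CPM in WT mice (log2 fold change 0.10, SE 0.35).

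**Figure D5:**
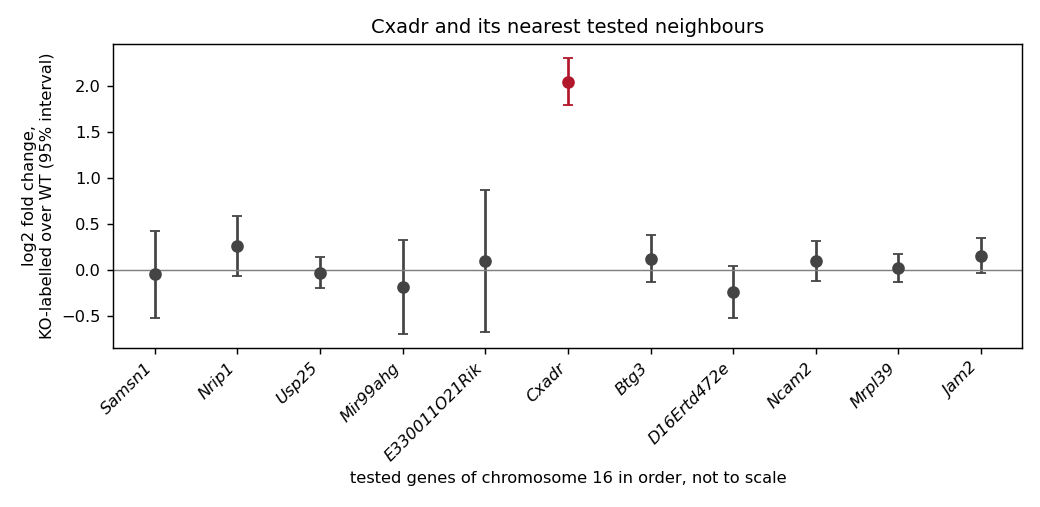
Log2 fold change of KO-labelled over WT (y axis, with 95% interval) of Cxadr and the 5 nearest tested genes on each side along chromosome 16, in order and not to scale. Cxadr lies at 2.05 and its neighbours between -0.24 and 0.26.

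By Pearson's r of log2 CPM over the 12 libraries, the genes most like Cxadr among 14101 with a mean of at least 1 CPM were Mbnl2 itself (0.92), Smarcd3 (0.91), Cib2 (0.91), Ppp2r5b (0.91) and L1cam (0.90). L1cam, a neuronal adhesion molecule of the same superfamily, had 120 ± 11 CPM in KO-labelled and 88.3 ± 9.32 CPM in WT mice (SD, n = 6 each). The most opposite were Sdf4 (-0.97), Tprgl (-0.97), Prkar1a (-0.96), Anxa6 (-0.96) and Flywch1 (-0.96). Anxa6, a calcium-dependent phospholipid-binding annexin, had 69.4 ± 5.68 CPM in KO-labelled and 147 ± 16.2 CPM in WT mice. These values describe libraries that share the genotype split. For deviations from the group means, r was -0.03 for Mbnl2, 0.008 for Smarcd3, 0.16 for Cib2, 0.35 for Ppp2r5b and 0.71 for L1cam. Among the most opposite genes it was -0.73 for Sdf4, -0.54 for Tprgl, -0.69 for Prkar1a, -0.11 for Anxa6 and -0.70 for Flywch1.

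Among 59 tested genes of 5 lists that surround the family, 0 were called between the genotypes over both treatments (0.576% of all genes tested were) and 16 had an unadjusted p under 0.05 (14.4% of all genes). DESeq2 called 4 of the 50 to which it gave an adjusted p, or 8%, beside 5.04% of all such genes. The claudins, MARVEL proteins and cingulins of tight junctions had 3 of 17 log2 fold changes above 0 (48% of all genes) and a median of -0.67, beside -0.01 for all genes tested. Ocln, the tight junction protein occludin, had 13.2 ± 1.76 CPM in KO-labelled and 21.0 ± 5.06 CPM in WT mice (log2 fold change -0.67, SE 0.15, Benjamini-Hochberg adjusted p = 0.0853, edgeR quasi-likelihood). Cldn23 had 0.691 ± 0.364 CPM in KO-labelled and 0.192 ± 0.17 CPM in WT mice (1.95, SE 0.46), and Cldn12 had a log2 fold change of -0.22 (SE 0.09). The lowest WT value of Cldn23, 0.040 CPM, was below the level of 3 counts. Choroid plexus markers, all 15 measured, averaged 2130 CPM in KO-labelled and 5898 CPM in WT libraries as a sum, and their part in the claudin values was not tested. Cldn2 belongs both to these markers and to the claudins listed.

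The PDZ and scaffold partners of CAR and JAM proteins had 13 of 23 values above 0 and a median of 0.05. Pard3b, a polarity protein, had 6.39 ± 0.672 CPM in KO-labelled and 8.46 ± 1.34 CPM in WT mice (log2 fold change -0.40, SE 0.09, Benjamini-Hochberg adjusted p = 0.0902, edgeR quasi-likelihood). Cask, a synaptic scaffold kinase, had 84.8 ± 3.72 CPM in KO-labelled and 75.2 ± 4.15 CPM in WT mice (0.17, SE 0.05), and Pard6a, a partner of atypical protein kinase C, had a log2 fold change of 0.27 (SE 0.07). The edgeR adjusted p was 0.131 for both. These 3 and Ocln were the 4 called by DESeq2.

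The nectin and Cadm adhesion molecules had 8 of 9 values above 0 (48% of all genes) and a median of 0.15, beside -0.01 for all genes tested. The part of tissue content in these values was not tested, and CA1 markers averaged 880 CPM in KO-labelled and 618 CPM in WT libraries as a sum. Their smallest edgeR adjusted p was 0.314, for the nectin gene Pvrl1 (log2 fold change 0.30, SE 0.13), followed by Cadm4 (0.37, SE 0.16) and Cadm3 (0.25, SE 0.12). The leukocyte integrins that bind JAM proteins had 5 of 6 above 0, beside the same 48% of all genes, and a median of 0.27. They were led by Itgal (1.49, SE 0.39, edgeR adjusted p = 0.114), an integrin chain at 0.701 ± 0.286 CPM in KO-labelled and 0.286 ± 0.218 CPM in WT mice. Its lowest WT value, 0.080 CPM, was below the level of 3 counts. Itga4 (0.35, SE 0.20) and Itgam (0.25, SE 0.15) came next. Of the 4 tested relatives outside the members, Amica1, a leukocyte JAM-like protein that binds CAR, had 0.536 ± 0.274 CPM in KO-labelled and 0.268 ± 0.126 CPM in WT mice (1.08, SE 0.40, edgeR adjusted p = 0.251). Igsf5 (-0.79, SE 0.68) and Vsig2 (-0.15, SE 0.19) followed, and the list had 2 of 4 above 0 and a median of -0.05. Igsf5 ran from 0.080 CPM, below the level of 3 counts, to 2.81 CPM among WT libraries.

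Between trained and house control mice 0 of the 59 were called, where 0% of all genes were, and 9 had an unadjusted p under 0.05 (11.2% of all genes). Tight junction genes had 1 of 17 log2 fold changes above 0 (47.7% of all genes) and a median of -0.44, beside -0.01 for all genes. Cldn5, the main claudin of brain endothelium, had 28.3 ± 3.27 CPM in trained and 38.6 ± 8.89 CPM in house control mice (log2 fold change -0.44, SE 0.12, Benjamini-Hochberg adjusted p = 0.414, edgeR quasi-likelihood). The endothelial markers given beside Esam, which include Cldn5 itself, averaged 303 CPM in trained and 390 CPM in house control mice as a sum. Other marker sums also averaged lower in trained than in house control mice, at 3201 and 4827 CPM for choroid plexus, 107 and 181 CPM for ependymal, 586 and 991 CPM for leptomeningeal and 4426 and 6576 CPM for oligodendrocyte markers, with overlapping ranges over both genotypes. Their part in the tight junction values was not tested. Cldn23 (-1.26, SE 0.46) averaged 0.291 CPM in trained and 0.593 CPM in house control mice, and Cldn14 (-1.67, SE 0.66) averaged 0.223 CPM in trained and 0.697 CPM in house control mice. The lowest trained value of each, 0.040 CPM, was below the level of 3 counts. The scaffold partners had 13 of 23 above 0 and a median of 0.05, and the polarity genes Pard3 (-0.26, SE 0.08), Pard6g (-0.55, SE 0.17) and Pard3b (-0.27, SE 0.09) led them. The medians were 0.08 for nectins and Cadm genes, -0.28 for leukocyte integrins and -0.17 for the other relatives.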

How the data were processed

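The authors deposited 1 file of raw counts per library, whole numbers of reads per gene symbol. The submitters' processing notes list TopHat2 2.1.1, Bowtie2 2.3.4.2, cutadapt 1.18, DESeq2 1.18.1 and HTSeq 0.9.1, with build mm10. How strand was treated was not given in the sources used here, which leaves reads of overlapping genes uncertain. The 4 pairwise tables the authors deposited (24394 genes) hold, by their file headers, base means (signal), log2 fold changes with standard errors, test scores, and p-values raw and adjusted.

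Counts were fitted in R 4.3.3 with edgeR 4.0.16: filterByExpr (minimum count 10, minimum total 15), TMM scaling and a robust quasi-likelihood fit of 4 group means over 12 libraries. Benjamini-Hochberg adjustment ran over all 15622 genes, at a threshold of 0.05. CPM use TMM-scaled library sizes, and levels per kb divide by the summed exon length of GENCODE M21. Permutation tests were two-sided. The members, lists, markers and alternatives were chosen with earlier results of these data known. Named list genes are those with the 3 smallest unadjusted p. The procedure was tested on simulated counts.

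Groups came from the labels. Replicate numbers only name libraries. No 2 libraries were identical (chi-square per degree of freedom 13.0 to 91.0 within groups). The labels give animal numbers but no litters or batches, so p-values measure the spread between these mice. The alternatives tried were DESeq2 1.42.0, scaling by median of ratios, no low-count filter, only the libraries compared, each library left out, the animal series as covariate or alone, and 2 sets of libraries rich in other tissue left out. One oligodendrocyte marker of the chosen list is not reported here, and its list was computed without it. Protein sequences and isoform levels were not used here.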

Additional observations from a re-analysis of the deposited data

Results flagged for a closer look

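Among 26 sets of 6 libraries examined for a single library far from the others, 3 were marked by Dixon's criterion, which chance alone meets in about 1 set of 20. Esam in KO-labelled mice was at 9.94 CPM in house control replicate 3, below the 11.5 to 12.1 CPM of the other 5 libraries. Esam in house controls was at 17.3 CPM in WT replicate 1, above the 9.94 to 12.5 CPM of the other 5, and that library also had the highest summed level of endothelial markers, 509 CPM. Jam2 in house controls was at 62.1 CPM in KO-labelled replicate 3, above the 43.3 to 49.5 CPM of the other 5. Why these libraries stand apart was not tested.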

How the results depend on the processing

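None of the 6 relatives was called in any comparison under the alternatives run, nor Cxadr between trained and house control mice or in the interaction, and the log2 fold change of Cxadr between KO-labelled and WT mice over both treatments stayed between 1.99 and 2.15. Of the 59 list genes, 4 were called between the genotypes by DESeq2 (Cask, Ocln, Pard3b, Pard6a; 50 had an adjusted p), where 5.04% of all genes were, and 2 without WT house control replicate 1 (Magi2, Ocln), where 1.69% were, against 0 in the chosen fit, where 0.576% were, and leaving out each library in turn gave 0 to 2. Some effects of the members changed sign, where no tested effect of a member had passed in the chosen fit to begin with. With each library left out in turn, the log2 fold change of KO-labelled over WT ran from -0.0242 to 0.0297 for Igsf11, -0.239 to 0.0255 for Jam3, -0.127 to 0.0598 for Clmp and -0.0889 to 0.0462 for Esam, and the training effect of Igsf11 from -0.0125 to 0.0439. Without the low-count filter Igsf11 was at -0.000923 between the genotypes. Among mice of the first series KO-labelled over WT was -0.0429 for Igsf11 and 0.20 for Jam3. Without the 3 libraries richest in thalamus transcripts KO-labelled over WT was -0.0216 for Igsf11 and 0.41 for Jam3. Training effects were then 0.0964 for Cxadr, 0.35 for F11r, 0.019 for Jam3 and -0.0181 for Igsf11. In that fit WT house control 1 was the only library of its group, so each training effect rests partly on it. Without the 2 KO-labelled libraries rich in striatum and septum transcripts KO-labelled over WT was -0.0194 for Igsf11 and 0.0812 for Clmp. WT house control 3, also rich in them, was kept there. The causes were not tested. No paired analysis was possible because the replicate numbers were given in accession order.

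Esam, with 206 to 358 counts per library, and F11r, with 129 to 617, are the members with least depth. In Jam3 and F11r the spread between libraries of a group was far wider than in Igsf11, and their intervals leave room for sizeable differences either way. Gene-level counts cannot show isoforms, whole tissue cannot tell cell number from RNA per cell, and the Mbnl2 count does not check the genotype labels on which every direction rests. With 3 mice per group, no interaction passed the threshold for any gene by edgeR.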
